A study of Mus musculus with 16 samples.

Results

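The 4 butyrophilin-like genes of mouse intestinal epithelium, Btnl1, Btnl2, Btnl4 and Btnl6, were taken by name from the count files, which list 24421 genes, and all 4 were found in every file and passed the filter on low counts together with 13429 genes in all. They were read in 16 RNA-seq libraries of epithelium released with EDTA from 8 wild type mice of strain C57BL6/J, 4 at postnatal day 6 (P6, suckling) and 4 at postnatal day 36 (P36, weaned). Each mouse gave a segment of jejunum and a segment of ileum, so that the 4 groups (P6 jejunum, P6 ileum, P36 jejunum and P36 ileum) each held 4 libraries, and replicates 1 and 2 of each age were female and 3 and 4 male. A replicate number stands for the same mouse in the 2 regions of an age and joins nothing across ages. The design compares the ages within a region and the regions within an age.

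Butyrophilin-like proteins are membrane proteins of the immunoglobulin superfamily, related to the B7 co-signalling ligands, with a V-like and a C-like immunoglobulin domain outside the cell. In the small intestine of mice they are made by enterocytes and sit at the surface that touches intraepithelial lymphocytes. Btnl1 pairs with Btnl6 or Btnl4 on the cell surface, and the pair of Btnl1 and Btnl6 is recognised by the gamma delta T cell receptor of a large part of the intraepithelial lymphocytes of the gut. Btnl2 lacks the intracellular domain that the other members carry and has been described as an inhibitor of T cell activation.

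The 4 members lie within 163 kb of chromosome 17 (mm10), inside the major histocompatibility complex. Btnl2 spans chr17:34354822-34369492 and Btnl1 spans chr17:34377132-34386028, both on the plus strand. Btnl4 spans chr17:34469042-34475937 and Btnl6 spans chr17:34507935-34517352, both on the minus strand, and the pseudogene Btnl5-ps, which is transcribed, lies between them at chr17:34487406-34497429. The counted exons add to 2563 bases for Btnl2, 2113 for Btnl1, 1761 for Btnl4 and 1620 for Btnl6. The counted models of Btnl4, Btnl5-ps and Btnl6 are near copies of each other. Their GENCODE transcripts were 89.8% identical between Btnl4 and Btnl6 over 1620 aligned bases and 91.2% identical between Btnl5-ps and Btnl6 over 1595, with longest identical runs of 69 and 88 bases. Btnl1 and Btnl2 shared no run longer than 19 bases with any of the other transcripts of the cluster. The immunoglobulin V exon shows how closely reads of the 3 near copies resemble each other. Its first 150 bases are given 5′ to 3′ as transcribed, for Btnl6 (chr17:34515552-34515701, minus strand), Btnl4 (chr17:34474205-34474354, minus strand) and Btnl5-ps (chr17:34494306-34494455, minus strand), with capitals at the bases that differ from Btnl6.
Btnl6: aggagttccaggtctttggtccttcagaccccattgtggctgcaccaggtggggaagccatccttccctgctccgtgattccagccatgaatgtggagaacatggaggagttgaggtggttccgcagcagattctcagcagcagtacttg
Btnl4: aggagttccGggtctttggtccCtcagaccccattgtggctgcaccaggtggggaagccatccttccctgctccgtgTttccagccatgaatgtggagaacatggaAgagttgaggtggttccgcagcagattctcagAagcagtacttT
Btnl5-ps: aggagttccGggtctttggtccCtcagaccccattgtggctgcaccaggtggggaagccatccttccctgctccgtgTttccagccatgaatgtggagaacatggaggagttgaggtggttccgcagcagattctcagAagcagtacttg
Over the whole exon of 351 bases Btnl4 differed from Btnl6 at 21 bases and Btnl5-ps at 16. Of all stretches of 100 bases in the transcripts, 98.6% of those of Btnl4 and 99.9% of those of Btnl6 were found in no other gene's transcript, and of stretches of 50 bases 90.0% and 92.9% were. Every stretch of either length in Btnl1 and Btnl2 was its own. Reads that match 2 places were not counted, so levels of Btnl4 and Btnl6 carry an uncertainty that those of Btnl1 and Btnl2 do not.

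Levels are given per library as CPM (counts relative to the library total, with totals adjusted by the trimmed mean of M values, TMM), and as CPM per kilobase of counted exon where genes are compared with each other. Library totals ran from 12159237 to 25947276 counts, and the lowest sum of counts of a member over the 4 libraries of a group was 3967, for Btnl2 in P6 ileum. Epcam, a marker of epithelium, was above 1100 CPM in all 16 libraries.

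All 4 members were already abundant at P6. In P6 jejunum, Btnl6 stood at 292.2 ± 92.0 CPM per kb (SD, n = 4), Btnl1 at 183.0 ± 40.7, Btnl2 at 110.5 ± 15.5 and Btnl4 at 70.8 ± 6.72. Ranked by level per kb among the 13429 tested genes, Btnl6 was number 213 (the top 1.59%) in that group and Btnl4, the lowest of the 4, number 1125. Btnl6 was also the highest of the 4 per kb in the other 3 groups, at ranks 370, 316 and 364 in P6 ileum, P36 jejunum and P36 ileum. The order of Btnl6 over Btnl1 held in all 16 libraries. In P6 ileum, Btnl1 (40.9 ± 14.6 CPM per kb) and Btnl4 (44.3 ± 3.68) did not differ beyond their spread, and in P36 jejunum Btnl2 (84.0 ± 8.47) and Btnl4 (82.8 ± 14.8) did not either.

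Btnl1, the partner that Btnl6 and Btnl4 need at the cell surface, was read at 345.4, 472.3, 286.7 and 442.6 CPM in P6 jejunum (replicates 1 to 4) and at 73.4, 79.0, 61.9 and 131.6 in P6 ileum. At P36 it was read at 510.5, 479.3, 379.5 and 433.0 CPM in jejunum and at 444.4, 213.4, 111.4 and 237.3 in ileum. The jejunal libraries stood well above the ileal ones at P6 with no overlap, whereas at P36 ileum replicate 1 reached the jejunal range and replicate 3 stayed near the P6 ileum. The jejunum to ileum difference was 2.16 on the log2 scale at P6 (SE 0.34, adjusted p = 0.00023, edgeR quasi-likelihood test), a fold of 4.47, and higher in jejunum in 4 of 4 mice. At P36 it was 0.84 (SE 0.33, adjusted p = 0.0985), again higher in jejunum in 4 of 4 mice, and with each mouse as a block it was 1.00 (adjusted p = 0.0169). Without P36 ileum replicate 1 the P36 difference was 1.27 (adjusted p = 0.00653). In bulk epithelium, fewer cells that make a transcript and less of it per cell cannot be told apart.

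Between the ages Btnl1 rose in ileum by 1.54 on the log2 scale (SE 0.33, adjusted p = 0.00103), a fold of 2.91, and it passed the test under each of the 19 alternatives tried. In jejunum the change was 0.22 (SE 0.33, adjusted p = 0.604), with an interval of 2 SE from -0.43 to 0.87. The difference of these changes, the region-by-age interaction, was -1.32 (SE 0.46, adjusted p = 0.0943). It passed the threshold without P36 ileum replicate 3 (-1.57, adjusted p = 0.0214) or without P6 ileum replicate 4 (-1.60, adjusted p = 0.0267), and with DESeq2 (-1.34, adjusted p = 0.0394). These were the only 3 of 26 alternatives under which the interaction passed. With the mouse as a block it was -1.19 (adjusted p = 0.0511).

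Btnl6, the second chain of the pair recognised by gamma delta T cells, was read at 355.0, 660.2, 351.3 and 527.1 CPM in P6 jejunum and at 183.8, 297.7, 172.2 and 402.8 in P6 ileum. At P36 it was read at 476.0, 486.6, 345.0 and 414.1 CPM in jejunum and at 527.4, 274.7, 144.4 and 304.9 in ileum. The regions overlapped at both ages, since the highest P6 ileum library lay above the 2 lowest P6 jejunum libraries, and the highest P36 ileum library lay above every P36 jejunum library. The jejunum to ileum difference was 0.84 at P6 (SE 0.35, adjusted p = 0.0886) and 0.46 at P36 (SE 0.35, adjusted p = 0.427). Within mice, jejunum was the higher region in 4 of 4 mice at P6, by 0.39 to 1.15 on the log2 scale, and with the mouse as a block the P6 difference was 0.88 (adjusted p = 0.0163). It was 1.12 (adjusted p = 0.0251) without P6 ileum replicate 4. Btnl6 did not pass between the ages, with changes of -0.14 in jejunum (SE 0.35, adjusted p = 0.769, interval of 2 SE from -0.83 to 0.56) and 0.24 in ileum (SE 0.35, adjusted p = 0.573, interval from -0.45 to 0.94).

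The 4 P6 mice carry 2 numbers in their titles, L41800 for replicates 1 and 3 and L42150 for replicates 2 and 4, and the labels do not say what the number is. Btnl6 split along it, with the 2 L42150 mice at 527.1 and 660.2 CPM in jejunum and 297.7 and 402.8 in ileum, and the 2 L41800 mice at 351.3 and 355.0 in jejunum and 172.2 and 183.8 in ileum. The mean difference was 0.74 on the log2 scale in jejunum and 0.96 in ileum, and 3.77% of tested genes differed by at least as much on average over the regions. Btnl1 was split the same way in both regions, by 0.54 and 0.60, and Btnl4 was not (0.05 and -0.16). Btnl2 differed by 0.34 and 0.57, and was split in jejunum but overlapped in ileum. The summed Paneth cell genes split the other way. They stood at 814.0 and 575.6 CPM in L41800 jejunum against 46.7 and 29.7 in L42150 jejunum, and at 670.7 and 479.0 against 64.3 and 91.1 in ileum. Of all tested genes, 9.79% were higher in both L42150 libraries than in both L41800 libraries in each region. With the title number in the fit, the Btnl6 difference between regions at P6 was 0.87 (adjusted p = 0.0315).

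Btnl4, the other partner of Btnl1, was read at 122.2, 141.3, 121.9 and 113.3 CPM in P6 jejunum and at 81.4, 68.5, 82.7 and 79.2 in P6 ileum. At P36 it was read at 153.2, 178.7, 118.6 and 132.7 CPM in jejunum and at 162.5, 103.0, 62.3 and 98.0 in ileum. At P6 the regions did not overlap, with a coefficient of variation of 9.49% in jejunum and 8.31% in ileum. The jejunum to ileum difference at P6 was 0.68 (SE 0.22, adjusted p = 0.0307). This call was kept without either replicate 4 library, whereas leaving out P6 ileum replicate 1, 2 or 3 or P6 jejunum replicate 1, 2 or 3 gave values from 0.62 to 0.69 with adjusted p from 0.0511 to 0.0826. At P36 the difference was 0.45 (SE 0.22, adjusted p = 0.178), and 0.73 (adjusted p = 0.00987) without P36 ileum replicate 1. The change with age was 0.23 in jejunum (SE 0.22, adjusted p = 0.408) and 0.45 in ileum (SE 0.22, adjusted p = 0.0898), the latter 0.64 (adjusted p = 0.00797) without P36 ileum replicate 3.

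Btnl2, described as an inhibitor of T cells, had the largest fold between regions among the 4 members at both ages. It was read at 260.6, 326.8, 240.3 and 305.2 CPM in P6 jejunum and at 46.5, 46.4, 30.8 and 67.8 in P6 ileum. At P36 it was read at 232.5, 230.9, 185.9 and 212.4 CPM in jejunum and at 154.6, 63.2, 17.2 and 54.7 in ileum. Every jejunal library stood above every ileal library of its age, and every P6 jejunum library above every P36 jejunum library. The jejunum to ileum difference was 2.57 at P6 (SE 0.45, adjusted p = 0.00054), a fold of 5.92, and 1.57 at P36 (SE 0.43, adjusted p = 0.0205), a fold of 2.98, with jejunum higher in 4 of 4 mice at each age. The P36 value passed the threshold with the mouse as a block (1.95, adjusted p = 0.0067) and missed it without P36 ileum replicate 2 (1.53, adjusted p = 0.0591), P36 ileum replicate 4 (1.46, adjusted p = 0.067) or P36 jejunum replicate 1 (1.53, adjusted p = 0.0514), and with only the P36 libraries in the fit (1.59, adjusted p = 0.0539). Between the ages, the change of Btnl2 was -0.39 in jejunum (SE 0.42, adjusted p = 0.462, interval from -1.24 to 0.45) and 0.60 in ileum (SE 0.43, adjusted p = 0.246). With only the 8 jejunal libraries in the fit, the spread of the ileum no longer enters and the jejunal change was -0.38 (SE 0.11, adjusted p = 0.012). The ileal value turned on single libraries, being -0.09 (adjusted p = 0.846) without P36 ileum replicate 1 and 0.93 (adjusted p = 0.0204) without replicate 3.

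**Figure D1:**
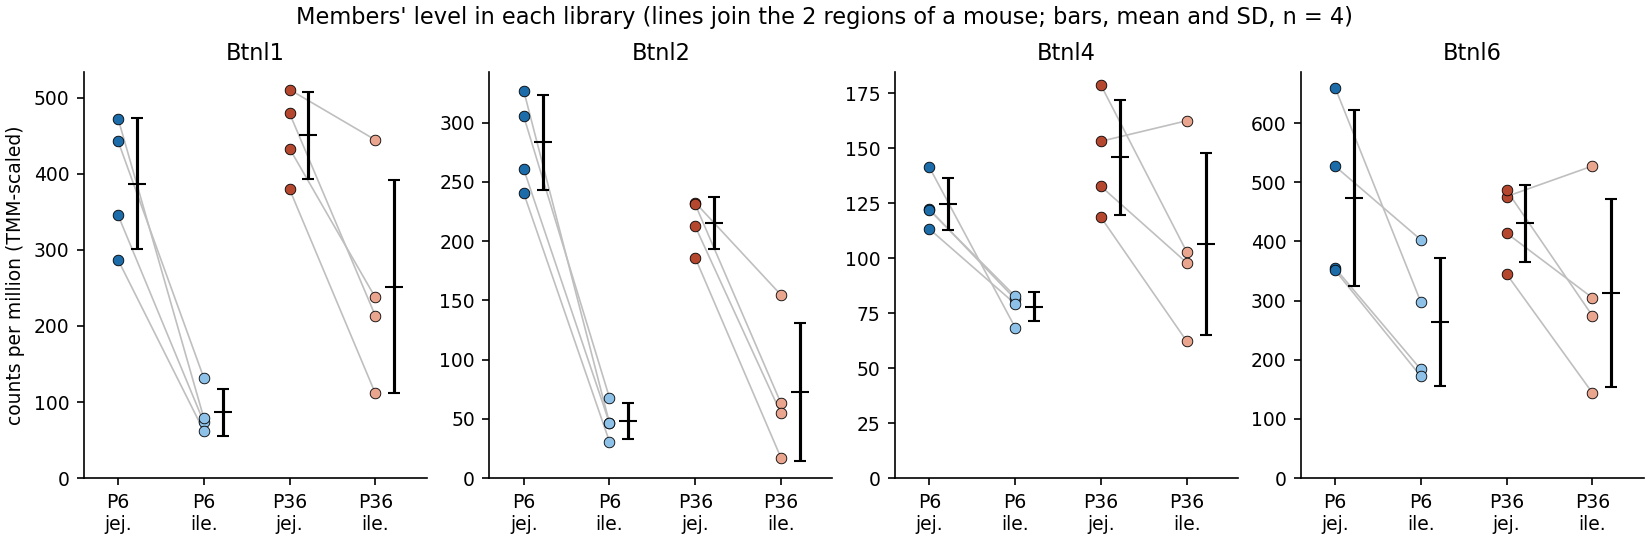
Level of each member in each library, in CPM on axes from 0. Points are libraries, grey lines join the jejunum and ileum of 1 mouse, and bars give the mean and SD of 4 libraries. Btnl1 and Btnl2 fell from jejunum to ileum in all 8 mice, and the P36 ileum libraries of Btnl1 spread from 111.4 to 444.4.

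By the rule of an adjusted p below 0.05 and a log2 fold change beyond 2, Btnl1 and Btnl2 were called higher in P6 jejunum than in P6 ileum, as were 2.2% of all tested genes. By adjusted p alone, 3 of 4 members were higher in jejunum at P6, against 11.1% of tested genes, and 1 of 4, Btnl2, at P36, against 8.3%. With the mouse as a block these counts were 4 of 4 at P6 and 2 of 4 at P36, Btnl6 and Btnl1 being added. The shares above are from the main fit, with 1495 genes higher in jejunum at P6 and 1115 at P36. Under the alternatives, the block among them, these counts of genes ran from 893 to 2156 and from 573 to 1528. No member reached the fold rule at P36, where 2.06% of tested genes did. With age, 1 of 4 members, Btnl1, rose in ileum, against 25.5% of tested genes. In jejunum 0 of 4 changed in the main fit, with 0 at an unadjusted p below 0.05 and 0 by DESeq2. There 51.6% of tested genes changed in either direction. With only the jejunal libraries in the edgeR fit, the change of Btnl2 was -0.38 and passed (adjusted p = 0.012). For the interaction, 0 of 4 passed by edgeR, with 1, Btnl1, at an unadjusted p below 0.05 and the same 1 by DESeq2, against 8.69% of tested genes. Of 8 listed epithelial markers, 4 rose and 1 fell with age in jejunum, against 24.7% and 26.9% of all tested genes. Krt20, a keratin of mature enterocytes, rose by 4.20 on the log2 scale (adjusted p = 1.38e-08) and Vil1, a structural protein of the microvillus, by 1.40 (adjusted p = 0.0009), Krt18, an epithelial keratin, fell by 1.16 (adjusted p = 0.00121), and the change of Epcam was 0.22 (adjusted p = 0.261). Markers of secretory cells rose with age in both regions, in 7 of 7 goblet cell genes and 6 of 7 Paneth cell genes. Of all tested genes, 24.7% rose in jejunum and 25.5% in ileum. Summed, the goblet cell genes stood at 1754 to 4191 CPM at P6 and 11533 to 23803 at P36, and the Paneth cell genes at 29.7 to 814.0 and 4684 to 17815. Their part in the age changes of the members was not tested.

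**Figure D2:**
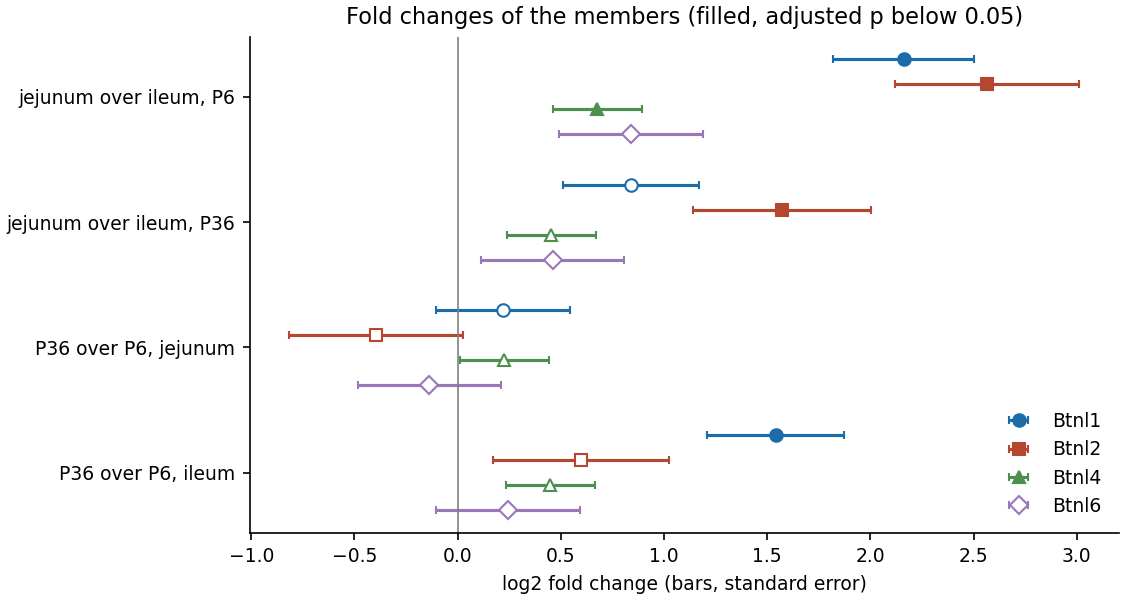
Log2 fold change of each member in the 2 comparisons between regions and the 2 between ages, with its standard error. Filled markers passed an adjusted p below 0.05, which holds for Btnl1, Btnl2 and Btnl4 between regions at P6, Btnl2 between regions at P36 and Btnl1 between ages in ileum.

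The mix of the 4 members differed between jejunum and ileum, which does not depend on how libraries are scaled. Btnl6 made up 43.9% ± 3.92 of the summed level per kb of the 4 members in P6 jejunum and 59.8% ± 6.70 in P6 ileum (SD, n = 4). Btnl1 made up 27.9% ± 1.66 and 15.3% ± 1.36, and Btnl2 17.1% ± 1.49 and 7.03% ± 1.04. At P36 the shares of Btnl6 were 41.1% ± 0.761 in jejunum and 48.4% ± 1.09 in ileum, those of Btnl1 33.1% ± 1.06 and 29.4% ± 0.945, and those of Btnl2 13.1% ± 0.521 and 6.25% ± 2.16. Btnl4 made up 11.1% ± 2.19 in P6 jejunum and 17.9% ± 5.96 in P6 ileum, and 12.8% ± 0.916 and 16.0% ± 2.53 at P36. Its share was thus also higher on average in ileum, with ranges that overlapped at both ages. Ileum held more Btnl6 for each unit of Btnl1 and Btnl2 than jejunum did.

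The 6 ratios between members were compared between regions at each age, 12 comparisons in all. The ratio of Btnl2 to Btnl6 per kb was 0.464, 0.313, 0.432 and 0.366 in P6 jejunum and 0.160, 0.0985, 0.113 and 0.106 in P6 ileum, a difference of 1.73 on the log2 scale (two-sided exact permutation test, p = 0.0286, adjusted p = 0.0381). The ratio of Btnl1 to Btnl6, the 2 chains of the recognised pair, was 0.746, 0.548, 0.626 and 0.644 in P6 jejunum and 0.306, 0.203, 0.276 and 0.250 in P6 ileum, a difference of 1.31 (exact p = 0.0286, adjusted p = 0.0381). At P36 it was 0.822, 0.755, 0.843 and 0.802 in jejunum and 0.646, 0.596, 0.592 and 0.597 in ileum, a difference of 0.41 (exact p = 0.0286, adjusted p = 0.0381). The regions did not overlap in this ratio at either age. The P36 values lay above every P6 value of the same region.

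Of the 12 comparisons, 9 gave the smallest p that 4 against 4 libraries allow, with all mice on the same side. The ratios within an age are tied to each other. The log2 ratio of Btnl1 to Btnl4, for example, is the sum of Btnl1 to Btnl2 and Btnl2 to Btnl4. The 9 are therefore not independent results, since a change in a single member can move several ratios, and the adjusted p rests on this tied set. How often pairs of other genes separate the regions in this way was not tested. The ratio of Btnl1 to Btnl4 at P36 differed by 0.48 (exact p = 0.0571, adjusted p = 0.0686), with 4 of 4 mice higher in jejunum. The ratio of the near copies Btnl4 and Btnl6 differed by -0.20 at P6 and -0.07 at P36 (exact p = 0.6 for each). The regions come from the same mice, and a test that flips the sign of each mouse's difference cannot go below 0.125 with 4 mice, the value it gave for these 9. Btnl2 to Btnl1, the 2 genes with their own sequence, also differed, by 0.42 at P6 and 0.96 at P36 on the log2 scale in favour of Btnl1 in ileum, so the mix also differed between genes with no near copy.

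**Figure D3:**
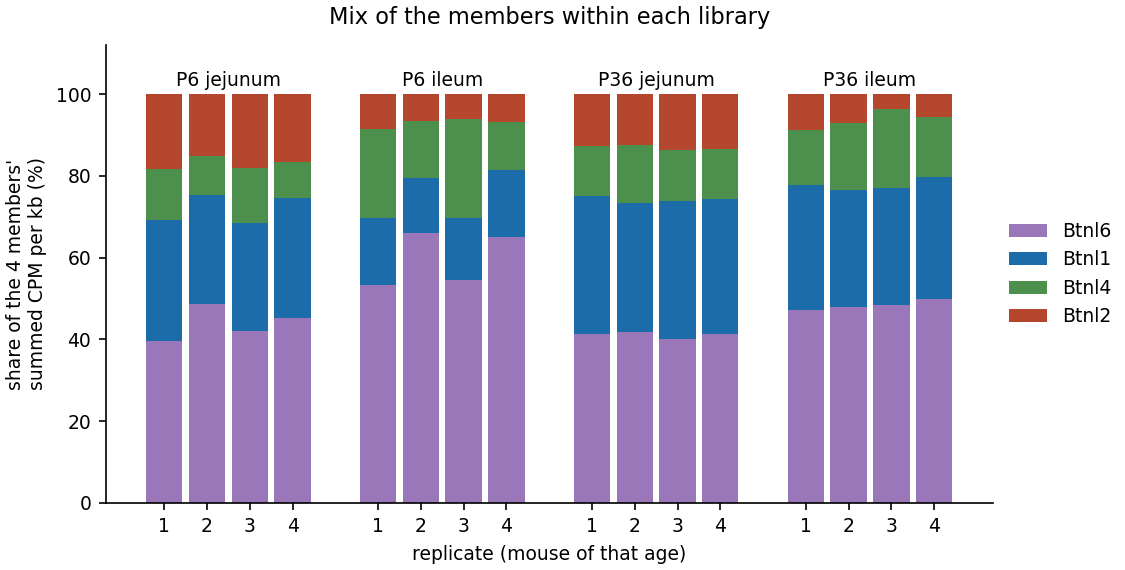
Share of each member in the summed CPM per kb of the 4 members, in percent, for each of the 16 libraries. Btnl6 took 39.6% to 48.6% in P6 jejunum and 53.4% to 66.1% in P6 ileum, and Btnl2 fell from 12.5% to 13.6% in P36 jejunum to between 3.64% and 8.76% in P36 ileum.

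The P36 ileum libraries were the most spread for every member. The coefficient of variation of Btnl2 was 80.6% there and 10.1% in P36 jejunum, and that of Btnl1 was 55.5% and 12.7%. In each of the 4 members replicate 1 was the highest P36 ileum library and replicate 3 the lowest. Deviations from the group means correlated at r = 0.955 between Btnl1 and Btnl6, 0.945 between Btnl1 and Btnl2 and 0.681 between Btnl4 and Btnl6 (Pearson, 16 libraries, which share mice in pairs). Ranked among genes by this measure, Btnl6 was number 18 for Btnl1, Btnl2 number 31 and Btnl4 number 722. For Btnl4, Btnl6 was number 935, so many other genes followed a member more closely than a fellow member did. Other genes of the epithelium were also highest in replicate 1 and lowest in replicate 3. Gata4, the transcription factor that marks proximal intestine, was read at 31.6, 5.56, 0.735 and 2.30 CPM in P36 ileum replicates 1 to 4, against 174 to 193 in P36 jejunum. Fabp2, an enterocyte fatty acid binding protein, was read at 7270.2, 1576, 471.2 and 1725 CPM in the same libraries. Vil1 stood at 4487, 2318, 1381 and 2688, and the Paneth cell markers together at 6887, 5925, 17815 and 9061. Epcam varied less, from 1382 to 2230, and Cdh1, the epithelial cadherin, from 920.6 to 1064. The part of the position along the gut, and of the mix of villus and crypt cells, in the spread of the members was not tested.

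In P6 ileum the highest library for Btnl1, Btnl2 and Btnl6 was replicate 4, which also had the highest Gata4 (34.7 CPM, against 8.98, 18.4 and 3.25 in replicates 1 to 3) and Fabp2 (948.8, against 381.5, 438.6 and 238.9). The same library had the lowest Vil1, at 752.1 CPM against 1444 to 1546 in the others, and the highest summed markers of stem and cycling cells, at 797.6 against 376.3 to 527.7. Btnl4 did not follow this, at 79.2 CPM in replicate 4 against 68.5 to 82.7 in the others. P6 ileum replicate 2 held muscle and stromal transcripts, with a summed level of 409.9 CPM over 10 genes against 24.2 to 45.5 in the other P6 ileum libraries, and without it the P6 differences of Btnl1 and Btnl2 between regions kept adjusted p below 0.05, whereas that of Btnl4 was 0.62 (adjusted p = 0.073). The sum was 7.37 to 19.7 CPM in P6 jejunum, and 7 of 8 tested muscle and stromal genes were lower in jejunum at P6, against 14.8% of all tested genes, with a median of -2.83. Their part in the P6 differences was not tested.

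**Figure D4:**
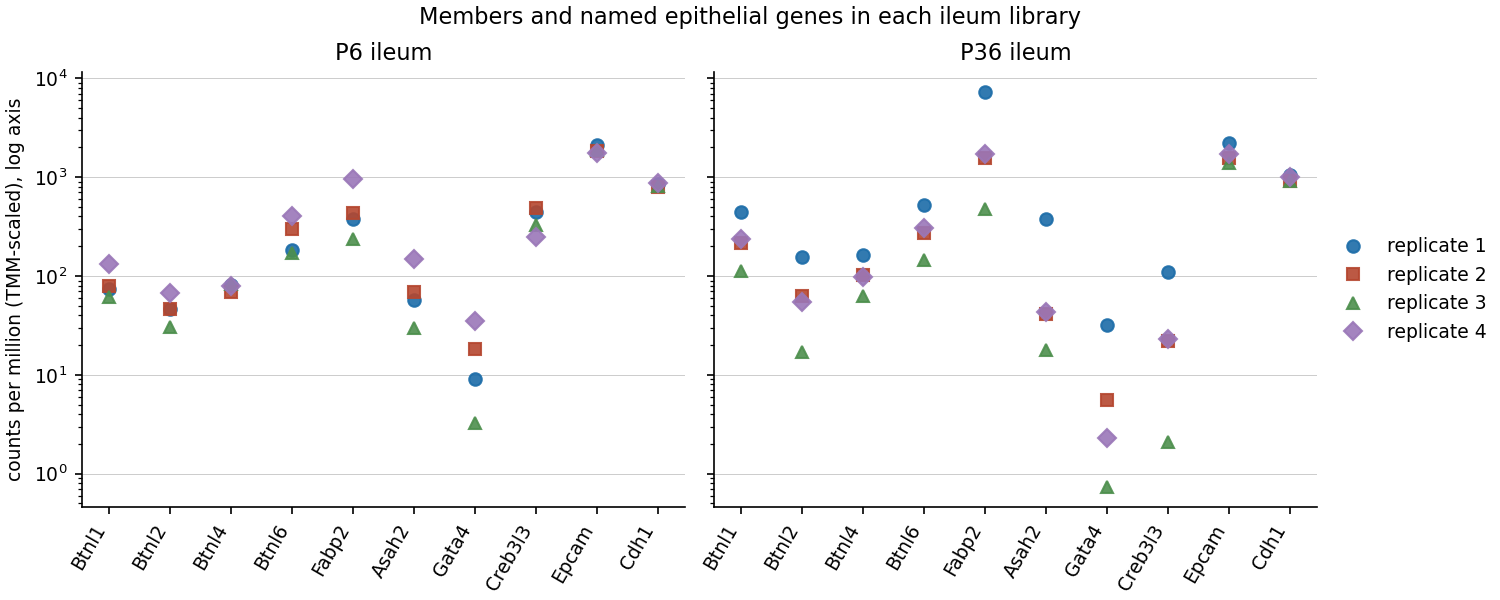
Levels in CPM, on a log axis, of the 4 members and of Fabp2, Asah2, Gata4, Creb3l3, Epcam and Cdh1 in each ileum library at P6 and P36. At P36 replicate 1 is the highest and replicate 3 the lowest for every gene drawn.

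The genes whose pattern was most like that of each member were named by correlation. Over the 16 libraries the log2 level most like that of Btnl1 was Fabp2 (r = 0.988), followed by Slc25a3, Gda, Gm8909 and Apol7a (r = 0.968 to 0.981). Fabp2 was 3.40 higher in jejunum on the log2 scale at P6 (adjusted p = 0.00108). The level most like that of Btnl2 was Asah2, a neutral ceramidase of the brush border (r = 0.974), which was higher in jejunum by 4.15 at P6 (adjusted p = 0.00114) and 3.35 at P36 (adjusted p = 0.00666). That most like Btnl4 was Xdh, xanthine dehydrogenase (r = 0.959), higher in jejunum by 1.61 at P6 (adjusted p = 0.00187), and that most like Btnl6 was Copa, a coatomer subunit (r = 0.909), whose difference at P6 was 0.42 (adjusted p = 0.0871). Btnl5-ps was among the 5 most like Btnl4 (r = 0.944) and Btnl6 (r = 0.873). These are correlations over libraries that share groups and mice, and they describe likeness of pattern.

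With the group means taken out, the gene most like Btnl1 was Tmc5 (r = 0.980), the most like Btnl2 was Ccng2 (r = 0.974), the most like Btnl4 was again Xdh (r = 0.970), and the most like Btnl6 was Adprm (r = 0.965). Slc5a1, the sodium glucose cotransporter of enterocytes, and Fabp2 were among the 5 most like Btnl2 by this measure (r = 0.973 and 0.969). Btnl1 itself was among the 5 most like Btnl6 (r = 0.955), whereas Btnl6 ranked 18 for Btnl1. No other member was among the 5 genes most like a member by either measure.

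Btnl5-ps, the pseudogene between Btnl4 and Btnl6, was read at 412.6, 523.4, 405.0 and 442.1 CPM in P6 jejunum, 271.9, 292.2, 236.8 and 340.5 in P6 ileum, 637.7, 687.3, 488.3 and 586.3 in P36 jejunum and 680.0, 358.2, 196.1 and 413.0 in P36 ileum. The regions did not overlap at P6 and overlapped at P36, as for Btnl4. Its differences on the log2 scale were 0.64 between regions at P6 (adjusted p = 0.0891, and 0.0453 with the mouse as a block), 0.54 between regions at P36 (adjusted p = 0.194), 0.43 between ages in jejunum (adjusted p = 0.195) and 0.53 between ages in ileum (adjusted p = 0.104).

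Of 25 other genes of the butyrophilin and B7 family in the files, 5 were tested, Btnl5-ps among them. The untested genes, among them Btn1a1, Btn2a2, Btnl9, Btnl10 and the Skint genes of skin and thymus, reached at most 0.950 CPM in any library. Icosl, the ligand of the T cell co-stimulator Icos, fell by 1.36 with age in jejunum (adjusted p = 6e-05) from 16.5 to 28.9 CPM at P6 to 7.41 to 9.75 at P36, and was 1.26 higher in jejunum than in ileum at P6 (adjusted p = 0.000406). Cd80, a ligand of T cell co-stimulation, was read with 54, 31 and 22 counts in P6 jejunum replicates 2 to 4, 1 in replicate 1 and 0 to 4 per library at P36, and fell with age in jejunum (adjusted p = 0.00516) and in ileum (adjusted p = 0.00497). Cd274 and Cd276 did not pass in any of the 4 comparisons. Age changes passed for 2 of the 5 in jejunum, both lower, against 26.9% of tested genes that were lower.

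The members sit beside the class II and antigen-processing genes of the major histocompatibility complex. Within 200 kb on either side of the cluster, 25 other genes were listed, Btnl5-ps among them, and 22 were tested. Of the 22, 11 rose with age in jejunum and 11 in ileum, against 24.7% and 25.5% of all tested genes, and 0 fell in either by edgeR, at an unadjusted p below 0.05 or by DESeq2. The 11 in jejunum included H2-Ob and H2-Eb2, which had group means of at most 0.513 CPM at P6. The median change was 0.83 in jejunum and 1.14 in ileum beside -0.01 and -0.03 over all genes. The class II gene H2-Ab1 stood at 2.5 CPM in P6 jejunum and 176.7 in P36 jejunum on average and rose by 6.16 (adjusted p = 2.13e-05), whereas the change of Btnl2, 85.4 kb away, was -0.39 and did not pass. Class II transcripts also come from myeloid and B cells, whose markers are given below, and their part was not tested. Between regions at P6, 3 of the 22 were higher in jejunum, against 11.1% of all tested genes, and 1, H2-Ob, was lower. The 3 were the immunoproteasome subunits Psmb8 (2.71, adjusted p = 0.000117) and Psmb9 (1.99, adjusted p = 0.000337) and the peptide transporter Tap1 (1.02, adjusted p = 0.0383). Like Btnl1 they rose with age in ileum, by 2.90, 2.28 and 2.01. Unlike Btnl1 (0.22, adjusted p = 0.604) they also rose in jejunum, by 0.95, 0.97 and 1.45 (adjusted p = 0.0426, 0.0169 and 0.0023). The Tap1 difference at P6 missed the threshold under 8 of 19 alternatives, 6 of them with 1 library left out (adjusted p up to 0.108). At P36, 0 of the 22 passed between regions by edgeR and by DESeq2, with 3 at an unadjusted p below 0.05, against 8.3% higher and 7.8% lower over all genes. BC051142, the gene between Btnl1 and Btnl4, stood at 1.1 to 2.0 CPM on average in each group.

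**Figure D5:**
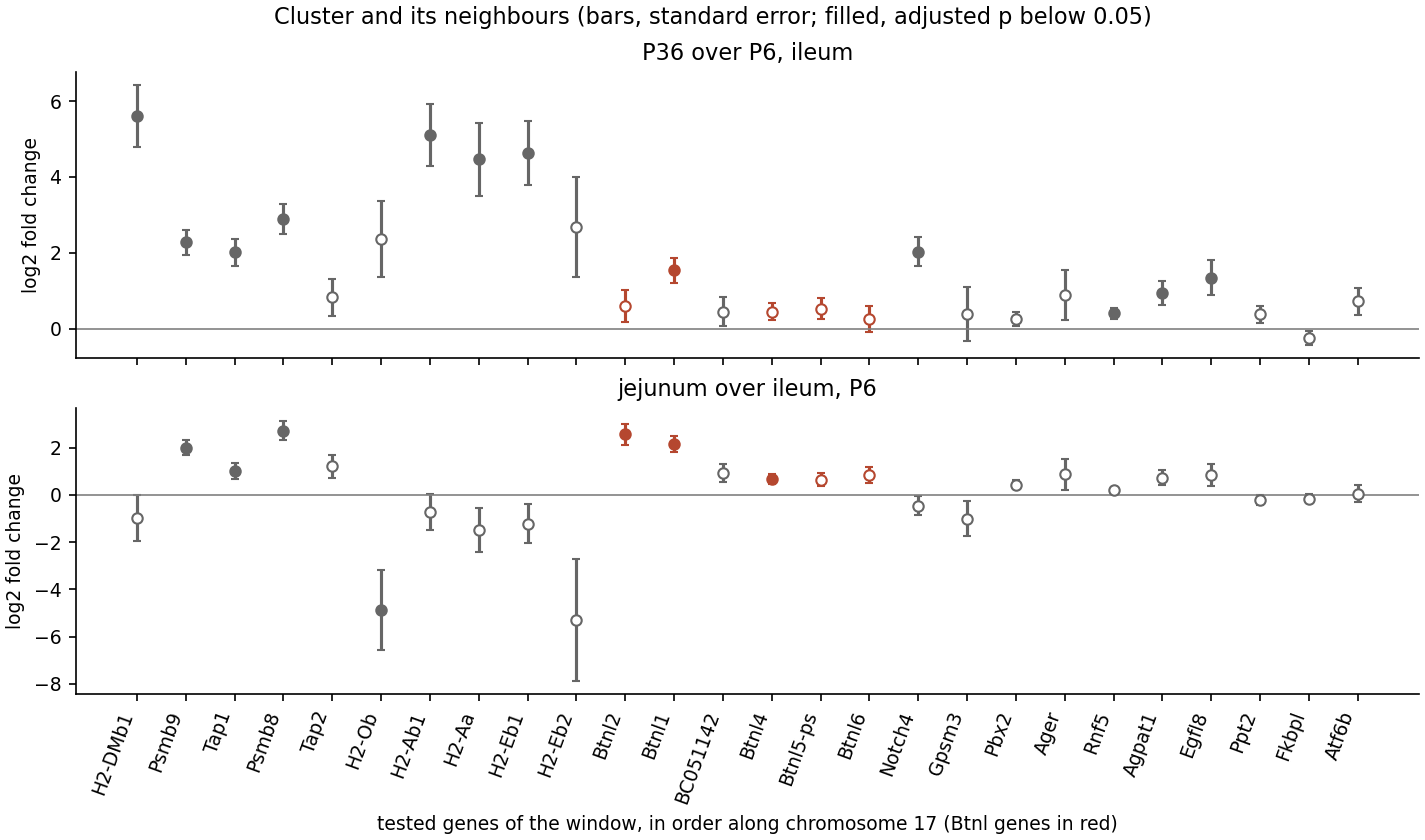
Log2 fold change with its standard error of each tested gene within 200 kb of the cluster, in gene order, for P36 over P6 in ileum (top) and jejunum over ileum at P6 (bottom), with Btnl genes in red and genes of adjusted p below 0.05 filled. The Btnl genes are positive in both panels, the class II genes H2-Ab1, H2-Aa and H2-Eb1 rise with age by 4.46 to 5.11 and are not filled between regions, and H2-Ob and H2-Eb2 were at or near 0 counts at P6, so the sizes of their fits are not read.

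Promoters are shown for Btnl2 and Btnl1, the members with the largest differences between regions, whose RefSeq gene spans begin inside the windows. The start used for a window is that of the counted model. RefSeq begins Btnl2 at chr17:34354789 and Btnl1 at chr17:34377123, both upstream of the counted start. The windows hold the 250 bases before the start and the first 50 after it, 5′ to 3′ on the plus strand (RefSeq, GRCm38.p6), at chr17:34354572-34354871 for Btnl2 and chr17:34376882-34377181 for Btnl1. Capitals mark matches to the searched cores, which were CAAAGTCCA for HNF4, TTTATNG for CDX, AGATAA for GATA and GAAANNGAA for a pair of interferon regulatory factor half-sites, on both strands.
Btnl2: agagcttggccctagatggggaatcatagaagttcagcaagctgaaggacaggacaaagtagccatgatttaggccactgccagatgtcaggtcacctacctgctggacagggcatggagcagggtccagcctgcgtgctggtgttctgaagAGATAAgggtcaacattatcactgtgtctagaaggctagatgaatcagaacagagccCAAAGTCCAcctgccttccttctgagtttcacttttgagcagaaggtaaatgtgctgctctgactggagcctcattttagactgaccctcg
Btnl1: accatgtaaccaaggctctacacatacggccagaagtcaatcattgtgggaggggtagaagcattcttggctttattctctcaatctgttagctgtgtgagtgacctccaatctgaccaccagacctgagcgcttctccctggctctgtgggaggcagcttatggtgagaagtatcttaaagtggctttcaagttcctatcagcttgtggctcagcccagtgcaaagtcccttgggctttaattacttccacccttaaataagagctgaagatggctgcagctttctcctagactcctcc
Btnl2 held the HNF4 core 41 bases before the counted start and the GATA core 98 bases before it, both on the plus strand. Both would lie nearer to the RefSeq start of the gene. Of all 32851 windows of this length, 0.475% held the HNF4 core, 11.2% the GATA core, 10.9% the CDX core and 8.56% the interferon regulatory factor pair. The windows of Btnl1, Btnl4 and Btnl6 held none of the 4 cores, which says only that these letters are not in them. The windows of Btnl4 and Btnl6 were 92.3% identical over 298 aligned bases, and RefSeq extends both genes upstream of these windows, so they are not shown.

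Of the transcription factors of enterocytes fixed as a list, all 19 were tested. In jejunum 4 rose and 3 fell with age, against 24.7% and 26.9% of all tested genes, and in ileum 8 rose and 5 fell, against 25.5% and 30.1%. Gata4 was higher in jejunum by 3.28 at P6 (adjusted p = 0.00844) and 4.17 at P36 (adjusted p = 0.00372), and Creb3l3, a regulator of lipid genes, by 3.37 at P36 (adjusted p = 0.00404). At P6 4 of the 19 were higher and 3 lower in jejunum, against 11.1% and 14.8%. Prdm1, a transcriptional repressor of suckling epithelium, fell with age by 4.98 in jejunum (adjusted p = 6.37e-09), from 182 to 227 CPM to 4.41 to 8.10. The members did not pass there in the main fit. Hnf4g, a factor of the villus, rose by 2.37 in jejunum (adjusted p = 1.08e-06).

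Of 15 genes for other epithelial signals to lymphocytes, 14 were tested, and 7 rose and 1 fell with age in jejunum, against 24.7% and 26.9% of all tested genes, and 8 rose and 1 fell in ileum, against 25.5% and 30.1%, with medians of 0.90 and 1.03 beside -0.01 and -0.03 over all genes. Ccl25, the chemokine that draws lymphocytes to the small intestine, rose by 2.26 in jejunum (adjusted p = 2.75e-09), Il18 by 3.25 (adjusted p = 6.2e-08) and Il15, a survival factor of intraepithelial lymphocytes, by 1.66 (adjusted p = 0.000199). Between regions at P6, 6 of the 14 were higher and 2 lower in jejunum, against 11.1% and 14.8%. The 2 lower were Cd1d1 (-2.40, adjusted p = 0.000517) and Raet1e (-3.45, adjusted p = 0.0117). By the fold rule 2 were called higher and 2 lower, against 2.2% and 4.3% of all tested genes. Il15ra, the receptor chain that presents Il15, was read at 10.0 to 12.2 CPM in P6 jejunum and 0.889 to 2.20 in P6 ileum, a difference of 2.67 (adjusted p = 5.68e-07). H2-T3, which encodes the thymus leukemia antigen and was singled out after its values were seen, was higher in jejunum by 1.22 at P6 (adjusted p = 0.000245) and 0.95 at P36 (adjusted p = 0.00306).

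Transcripts of the lymphocytes themselves were sparse. The genes of the gamma delta T cell receptor that were looked for (Trdc, Tcrg-C1, Tcrg-C2, Tcrg-C4 and Tcrg-V7) were not in the files. Cells that carry this receptor were thus not read by it. Of 33 listed genes of intraepithelial lymphocytes, 28 were in the files, 20 were tested, and 18 of these rose with age in jejunum, against 24.7% of all tested genes, and 3 in ileum, against 25.5%, with medians of 2.80 and 0.52. Without P36 jejunum replicates 1 and 3, 5 of the 20 rose in jejunum. The summed level of the 28 genes was 148.0 and 188.3 CPM in P36 jejunum replicates 1 and 3, 25.1 and 30.9 in replicates 2 and 4, 10.1 to 21.4 in P6 jejunum and 9.18 to 26.6 in ileum at both ages. Gzma, a granzyme of these cells, stood at 47.1, 2.69, 59.4 and 3.36 CPM in P36 jejunum. The members did not split in this way. The summed level of the 4 genes per kb ran from 532.5 to 718.8 in those 4 libraries, with replicate 3 the lowest and replicate 1 among the 2 highest. Without replicates 1 and 3, 0 of 4 members passed between ages in jejunum by edgeR, as with them, and the difference of Btnl2 between regions at P36 was 1.64 (adjusted p = 0.0861). At P36, 6 B and plasma cell genes summed to 5.74 to 74.7 CPM and 7 myeloid genes to 10.8 to 29.3. All 6 B and plasma cell genes rose with age in jejunum and in ileum, against 24.7% and 25.5% of all tested genes. Their median changes were 6.92 and 3.30. Of 5 tested myeloid genes, 2 rose and 2 fell in jejunum and 2 fell in ileum, where 26.9% and 30.1% of all tested genes fell. At P6 the myeloid sum was 167.4 to 511.4 and consisted largely of Csf1r (152 to 498 CPM), while the B and plasma cell sum was at most 3.29.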

How the data were processed

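Epithelium was released with EDTA from 1 segment per region (2 cm in the series text), libraries were made with a stranded mRNA kit, and the authors deposited whole-number read counts per gene and sample. Per the labels and the methods, reads were trimmed with Trimmomatic 0.38, aligned to mm10 with STAR (2.5.3 in the processing notes) and counted over exons by reverse strand with featureCounts of Subread 1.6.3, without multi-mapping reads. The read length was not given in the sources used here. From these counts, 13429 genes were kept by edgeR's filter and 1 edgeR 4.0.16 quasi-likelihood fit (R 4.3.3) over all 16 libraries, with TMM scaling and a mean per group, gave every comparison, with Benjamini-Hochberg adjustment over all tested genes. The SE is the log2 fold change divided by the square root of its F. A call meant an adjusted p below 0.05, and the fold rule added a log2 fold change beyond 2. The fitting script was tested on simulated data with known changes.

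Groups came from the sample titles and characteristics, which name the mouse. Within an age, deviations from the group means of the 2 regions of a mouse correlated at 0.157 to 0.391 (P6) and 0.240 to 0.347 (P36). For libraries of unlike mice the mean correlation was -0.106 (P6) and -0.101 (P36). Deviations from a group mean sum to 0, so these values are tied to the former and are not an independent baseline. The pairing of the regions by mouse rests on the titles. Ratios between members were log2 ratios of counts per kb within a library, compared by exact permutation of the region labels. Promoter windows are from RefSeq tables (GRCm38.p6) and transcripts from GENCODE vM21, of the same assembly as mm10. The members, gene lists and tests were chosen with earlier results of these data known. Named were the members, the 5 genes most like each by correlation of log2 CPM over libraries and of deviations from group means, up to 5 genes per list by adjusted p between ages in jejunum with those called between regions, and genes within 200 kb. Alternatives were other scalings (median of ratios, library totals), no filter or a mean CPM of at least 1, sex or the P6 title number as a covariate, a robust prior, only the libraries compared, thinned counts, the mouse as a block (limma 3.58.1 for ages), DESeq2 1.42.0 and each library left out. In the main fit the p-value of a gene rests on 1 estimate of the spread between mice, pooled over the 4 groups. Permutation p-values of ratios use the libraries of 1 age. The 2 regions of an age share mice.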

Additional observations from a re-analysis of the deposited data

Results flagged for a closer look

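The log2 ratio of Btnl1 to Btnl6 per kb in P36 ileum stood at -0.63, -0.75, -0.76 and -0.74 in replicates 1 to 4, and replicate 1 lay apart from the other 3, with a gap of 0.902 of the group's range which is above Dixon's 95% critical value for 4 samples. Of 44 groups of 4 values checked this was the single one beyond the critical value, where about 1 in 20 is reached by chance. P36 ileum replicate 1 was also the highest P36 ileum library for each member and for Gata4, at 31.6 CPM against 0.735 to 5.56.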

How the results depend on the processing

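The 5 differences of each member (2 between ages, 2 between regions and the interaction) were recomputed under every alternative, and 384 of 416 recomputed values kept their direction and their side of the threshold, as did 118 of 120 ratio values. All differences are on the log2 scale. The mouse as a block paired the regions and moved the Btnl1 region difference at P36 to 1.00 (adjusted p = 0.0169) and the Btnl6 region difference at P6 to 0.88 (adjusted p = 0.0163), both past the threshold, and changed no other call of a member. The Btnl6 difference also passed at 0.87 (adjusted p = 0.0315) with the title number of the P6 mice as a covariate. Library totals in place of TMM took the Btnl4 region difference at P6 to 0.39 (adjusted p = 0.110), and with them the median of all genes was -0.33 at P6. DESeq2 called the Btnl1 interaction at -1.34 (adjusted p = 0.0394). With only the libraries compared in the fit, the Btnl2 change with age in jejunum passed at -0.38 and its region difference at P36 missed at 1.59.

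With 1 library left out at a time, the Btnl1 region difference at P36 ranged from 0.59 to 1.27 and its interaction from -1.60 to -0.90, each gaining a call at its far end. The Btnl2 region difference at P36 ranged from 1.24 to 2.26, and was lost without P36 ileum replicate 2 or 4 or P36 jejunum replicate 1. The Btnl2 change with age in ileum ranged from -0.086 to 0.93 and that of Btnl4 from 0.17 to 0.64, both passing without P36 ileum replicate 3. The Btnl4 region difference ranged from 0.62 to 0.73 at P6, and was lost without any 1 of 6 P6 libraries, and from 0.27 to 0.73 at P36, passing without P36 ileum replicate 1. Its interaction ranged from -0.42 to 0.050. The Btnl6 change with age ranged from -0.26 to 0.064 in jejunum and from -0.12 to 0.52 in ileum, and its region difference at P6 from 0.64 to 1.12, passing without P6 ileum replicate 4. The log2 ratio of Btnl4 to Btnl6 between regions ranged from -0.43 to 0.0031 at P6 and from -0.14 to 0.018 at P36. Leaving out 1 of 4 against 4 cannot take the exact permutation p of a ratio below 0.0571, and sign flips within 4 mice not below 0.125.

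Alternatives chosen after seeing the data left out pairs of libraries. Without P36 ileum replicates 1 and 3 the region differences at P36 of Btnl1 (1.00, adjusted p = 0.0336) and Btnl4 (0.54, adjusted p = 0.0492) passed. Without P36 jejunum replicates 1 and 3 the Btnl2 region difference at P36 was 1.64 (adjusted p = 0.0861) and the Btnl6 change with age in jejunum 0.012. Of the counts over all tested genes, library totals gave 893 higher and 4077 lower in jejunum at P6, against 1495 and 1989, and 1038 against 673 for the higher interaction. For the lower interaction DESeq2 gave 760 and leaving out P6 ileum replicate 4 gave 979, against 494, and 661 genes against 1048 were lower in jejunum at P36 without P36 jejunum replicate 1. Without P36 jejunum replicates 1 and 3, 399 were lower there and 573 higher, against 1048 and 1115. The cause of these shifts was not tested.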
